A study of Mus musculus with 16 samples.

Results

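Replication-dependent histone genes, taken as every gene of the count table whose symbol begins with Hist1h, Hist2h, Hist3h or Hist4h, made up 68 of 24011 genes. They comprised 6 linker H1, 18 H2A, 19 H2B, 12 H3 and 13 H4 genes. RNA sequencing counts were available for 16 libraries of tissue from female wild-type mice of the C57BL/6 strain, whose ovaries had been removed at 6 to 7 weeks of age, 1 week before collection. Aortas, or pieces cut from the liver, were kept outside the body for 4 h at body temperature in DMEM (a culture medium) with 10 nM E2 (17β-estradiol, an estrogen) or with its ethanol vehicle, so all groups share the ovariectomy and the culture period. This gave aorta with E2, aorta with vehicle, liver with E2 and liver with vehicle, at 4 libraries each. Each column name carries the letter n or o and a number, and no label explains the letters, so the libraries are called n and o here. The labels describe one kind of library prepared with Ovation reagents, starting at 50 ng RNA, and a poly-A selected TruSeq kind, starting at 600 ng RNA of 1 aorta or 1 liver fragment. No source used here says whether n and o stand for these kits. The series text, by contrast, gives replicates that each pooled tissue of 4 mice. Which libraries came from separate animals is thus not settled by the labels, and p-values measure the spread between these libraries, which may be partly technical.

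Histone proteins package DNA. H2A, H2B, H3 and H4 form the nucleosome core, and H1 binds the DNA that links nucleosomes. The genes described here are switched on in S phase, when new chromatin is made, and their messages are unusual in that most end in a short stem-loop in place of a poly-A tail. The stem-loop is bound by SLBP, the protein that guides the processing, export and translation of these messages. Some of these genes also give longer, polyadenylated transcripts in cells that have stopped dividing.

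The stem-loop was searched in the longest annotated transcript of each gene (GENCODE vM21, build GRCm38) on the sense strand, as the letters GGNNC, then TTTTNA, then GNNCC with no gap, where N is any base. It was found in 43 of the 68 genes (63.2%), and in all 43 it began after the stop codon, 21 to 58 bases downstream. Several transcripts without a match, such as those of Hist1h2ak, Hist1h2bl, Hist1h3i and Hist1h4k, are annotated only to the stop codon. They could not hold the motif, so a missing match does not mean that the gene lacks a stem-loop. Among 21901 protein-coding genes, 72 (0.329%) had a match in any transcript, and 28 of these were not histone genes of this set. The motifs of the genes that carry the results below are printed with 5 flanking bases on each side. Capitals mark the 16 bases of the motif, to which the coordinates refer.
Hist1h1c (chr13:23739512-23739527, plus strand): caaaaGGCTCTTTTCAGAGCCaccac
Hist1h1d (chr13:23555787-23555802, plus strand): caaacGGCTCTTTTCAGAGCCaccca
Hist1h1e (chr13:23621782-23621797, minus strand): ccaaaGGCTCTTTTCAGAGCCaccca
Hist1h2be (chr13:23585531-23585546, minus strand): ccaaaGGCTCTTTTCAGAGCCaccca
Hist3h2ba (chr11:58949349-58949364, plus strand): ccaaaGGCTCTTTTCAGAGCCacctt
Hist2h2ac (chr3:96220418-96220433, minus strand): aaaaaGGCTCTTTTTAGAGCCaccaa
Hist3h2a (chr11:58955172-58955187, plus strand): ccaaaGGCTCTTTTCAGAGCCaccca
Hist1h4c (chr13:23698089-23698104, minus strand): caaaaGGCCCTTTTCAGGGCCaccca
Hist1h4d (chr13:23581950-23581965, plus strand): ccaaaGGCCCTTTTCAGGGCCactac
Hist1h4h (chr13:23531458-23531473, plus strand): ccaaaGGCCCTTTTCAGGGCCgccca
Hist1h4i (chr13:22040966-22040981, minus strand): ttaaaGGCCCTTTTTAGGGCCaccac
Hist2h4 (chr3:96262939-96262954, minus strand): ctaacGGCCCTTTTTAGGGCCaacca
Hist4h4 (chr6:136803998-136804013, minus strand): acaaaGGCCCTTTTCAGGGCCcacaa
The stem differed by class. Of the 13 H4 genes, 9 carried a stem of GGCCC and GGGCC, 2 carried GGTCC and GGACC, and 2 had no match. Each H1, H2A, H2B or H3 gene with a match carried GGCTC and GAGCC. No match was found in the annotated transcripts of Hist1h2bc or Hist2h2be, which says only that these letters are not in the annotated sequence. Counts were made on build mm9, so these coordinates are not those of the count table.

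Between 3896733 and 19823982 reads per library were counted to genes. Levels are given as CPM, the reads of a gene per 1e6 reads of the library, scaled between libraries by edgeR's TMM factors. Smooth muscle markers (5 genes) summed to 8680 to 18500 CPM in aorta and 123 to 449 CPM in liver, and hepatocyte markers (6 genes) to 61.8 to 580 CPM in aorta and 65500 to 189000 CPM in liver, as the tissue labels say. Fat cell markers (4 genes) reached 311 to 1090 CPM in aorta and 0.267 to 5.86 CPM in liver. Lymphocyte markers (6 genes) were at 136 CPM in vehicle aorta n2 and 63.9 CPM in vehicle aorta o2, against 7.32 to 22.2 CPM in the other aorta libraries. Testis germ cell markers (4 genes) were at 0 in every library except the n libraries of E2 aorta, at 0.077 and 0.198 CPM. The share of gene reads on the ribosomal precursor Rn45s was 25.7% to 34.5% in the o libraries of liver and 2.94% to 6.2% in all others. In whole tissue, fewer cells of a type and less RNA per cell cannot be told apart.

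Histone messages were rare. All 68 genes together had 9438 reads over the 16 libraries, and 14 genes with at least 100 reads held 91.7% of them. No read in any library was counted for 13 genes, and 34 genes had fewer than 20. These genes are near copies of each other, and the handling of reads that match several places is not given in the sources used here. In the 13 genes without a read, a median of 93.3% of the 36-base windows of the transcript also occurred in another gene, against 16.8% in the 14 genes with at least 100 reads, so for many of these genes a silent gene and a lack of unique bases cannot be told apart. Hist1h2aa and Hist1h2ba, known for expression in testis, had no read, and Hist1h1t, the testis linker histone, had 8. Per length of transcript, the order of the mean levels differed between n and o libraries. Length is that of the longest annotated transcript. A message that ends at the stem-loop can be shorter, so this order depends on the annotation. In n libraries Hist1h1c (21.6 CPM per kb), Hist1h2bc (13 CPM per kb) and Hist1h4h (3.22 CPM per kb) led. In o libraries the leaders were Hist1h4d (17.8 CPM per kb), Hist1h4c (5.07 CPM per kb) and Hist1h1e (4.99 CPM per kb), and Hist1h1c was at 2.59 CPM per kb.

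The n and o libraries held histone genes in different shares. In the n libraries, the linker gene Hist1h1c took 51% and the H2B gene Hist1h2bc 17.8% of all histone reads. In the o libraries, these shares were 6.78% and 2.51%, and the leading genes were the H4 gene Hist1h4d at 34.6% and the linker gene Hist1h1e at 16.2%. Hist1h4d took 0.818% and Hist1h1e 4.6% in the n libraries. By class, H4 genes took 9.52% to 13.9% of the histone reads in each n library of aorta, against 46.6% to 58.3% in each o library of aorta. In liver, the H4 share was 4.71% to 8.35% in n libraries and 40.3% to 45.2% in o libraries. H1 genes took 52.1% to 65.6% in n and 22.8% to 33.8% in o libraries of aorta. The shares of these classes did not overlap between n and o in either tissue. Such shares are taken within a library, so the scaling between libraries does not enter them.

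The summed level depends on that scaling. Histone reads summed to 36.6 ± 7.52 CPM in the n libraries of aorta, against 55 ± 22.9 CPM in its o libraries (SD, n = 4 each), with overlapping ranges. In liver the sums were 101 ± 16.2 CPM in n and 63.3 ± 4.36 CPM in o libraries (SD, n = 4 each), with no overlap. Without normalization factors, the sums were 56.9 CPM in n and 54.9 CPM in o libraries of aorta, and 86.6 CPM in n and 47.8 CPM in o libraries of liver. The order of n and o in aorta thus turned with the scaling, and no test was made on these sums. Among the o libraries of aorta, o1 stood above o2 in both treatments, at 80.2 and 34.6 CPM with E2 and 68.6 and 36.8 CPM with vehicle. Among its n libraries, vehicle n2 was at 47.8 CPM and the others at 34.5 CPM or less.

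**Figure D1:**
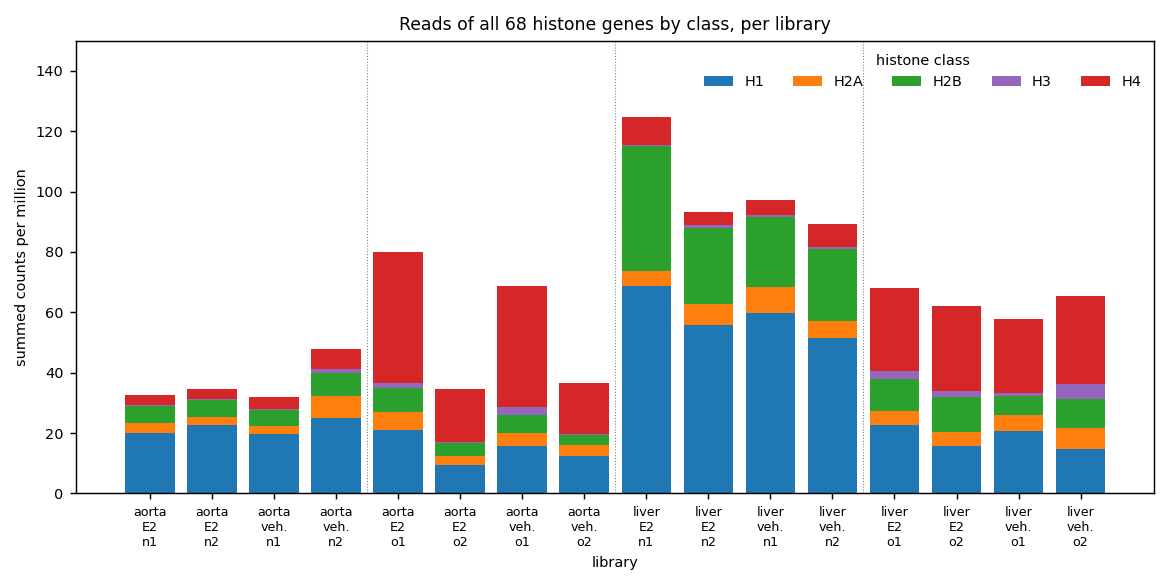
Summed CPM of all 68 histone genes in each of the 16 libraries, stacked by histone class. Red H4 blocks make up 40.3% or more of each o library and 13.9% or less of each n library, while blue H1 blocks are the largest part of every n library.

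Genes were compared between n and o libraries within each tissue by edgeR's quasi-likelihood test, and a gene was called at an adjusted p under 0.05 with an absolute log2 fold change over 1. In aorta, 13 of the 68 genes passed the filter on low counts, and 3 were called higher and 5 lower in n. Over all genes tested, 33.0% were called higher and 28.1% lower (61.0% in either direction). In liver, 8 genes passed the filter, and 3 were called higher and 3 lower, against 33.7% higher and 35.7% lower over all genes (69.5% in either direction). Such counts lie near the background, so they say nothing particular about histone genes. A gene read in libraries of a single letter could pass the filter, and such a gene had to differ. Hist1h2be, Hist1h4c and Hist1h4d passed mainly through their o libraries, and Hist1h4h in aorta and Hist1h1d and Hist1h2bc in liver through their n libraries. The p-values and the separation of groups for these genes are therefore not read as support. The sizes of the differences are described below by class.

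Among the linker histones, Hist1h1c and Hist1h1e went in opposite directions. In aorta, Hist1h1c (histone H1.2) had 17.8 and 20.7 CPM (E2) and 17.6 and 19.7 CPM (vehicle) in n libraries, against 5.45 and 2.25 CPM (E2) and 2.89 and 3.64 CPM (vehicle) in o libraries. In liver it had 56.6 and 46 CPM (E2) and 49.7 and 41.5 CPM (vehicle) in n, against 4.32 and 2.33 CPM (E2) and 7.74 and 3.76 CPM (vehicle) in o. Every n library exceeded every o library of its tissue, by a log2 fold change of 2.32 ± 0.28 in aorta (SE, adjusted p = 2.25e-05) and 3.42 ± 0.36 in liver (adjusted p = 1.18e-07). Hist1h1e (histone H1.4) had 1.16 and 1.07 CPM (E2) and 1.08 and 2.74 CPM (vehicle) in n libraries of aorta, against 13.9 and 6.42 CPM (E2) and 9.7 and 7.33 CPM (vehicle) in o. All n values lay below all o values, and the log2 fold change was −2.77 ± 0.40 (adjusted p = 8.68e-05). In liver, its 4.39 to 7.09 CPM in n libraries overlapped with 6.78 to 15.6 CPM in o libraries (log2 fold change −0.88 ± 0.40, adjusted p = 0.0553). In the annotation, Hist1h1e shares exon sequence on the same strand with Hist1h2be, so reads of this pair may not be told apart.

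The remaining H1 genes were lower in level. Hist1h1d (histone H1.3) was tested in liver, where it had 3 to 4.39 CPM in the n libraries and 0.102 to 0.801 CPM in the o libraries, without overlap (log2 fold change 2.98 ± 0.67, adjusted p = 0.000615). In aorta it had 66 reads in the n and 6 in the o libraries, a ratio of the rates of 6.01 (95% exact interval 2.62 to 17, covering counting error only). Hist1h1b (histone H1.5) was tested in aorta, at 0.159 to 0.47 CPM in n and 0.303 to 1.36 CPM in o, with overlap (log2 fold change −1.14 ± 0.58, adjusted p = 0.0978). Hist1h1a (histone H1.1) did not pass the filter in either tissue, with 37 reads over the n and 97 over the o libraries.

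H4 genes differed in direction among themselves, although several of them encode the same protein. In aorta, Hist1h4d had 0.27 and 0.119 CPM (E2) and 0.319 and 0.314 CPM (vehicle) in n libraries, against 36.8 and 13 CPM (E2) and 30.5 and 12 CPM (vehicle) in o. In liver it had 0.733 and 0.338 CPM (E2) and 0 and 2.53 CPM (vehicle) in n, against 18.2 and 18.6 CPM (E2) and 13.9 and 19.4 CPM (vehicle) in o. All o libraries stood far above all n libraries, and within aorta o1 stood above o2 in both treatments. The log2 fold change in aorta was −6.55 ± 0.49 (adjusted p = 8.98e-07), in place 7 from the lowest of 13698 genes, and in liver it was −4.27 ± 0.61 (adjusted p = 5.78e-06). Hist1h4c went the same way, with 0.0395 to 0.549 CPM in n and 2.37 to 6.13 CPM in o libraries of aorta, and 0.338 to 1.47 CPM in n and 3.46 to 5.08 CPM in o libraries of liver. The groups did not overlap, and the log2 fold change was −4.18 ± 0.53 in aorta (adjusted p = 3.41e-05) and −2.11 ± 0.56 in liver (adjusted p = 0.00236).

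Hist1h4h went the other way. In aorta it had 0.963 and 1.26 CPM (E2) and 0.996 and 0.862 CPM (vehicle) in n libraries, against 0 and 0.0642 CPM (E2) and 0 and 0.0485 CPM (vehicle) in o. These were 93 reads in n and 2 reads in o, which made the n to o ratio of the rates 25.4 (95% exact interval 6.84 to 213), while the fitted log2 fold change was 4.30 ± 0.68 (adjusted p = 0.000171). With so few o reads, the gene passed the filter in aorta through its n libraries, so this direction was set in advance. In liver, 50 reads in n and 26 in o gave 1.35 to 3.06 CPM in n and 0.267 to 2.02 CPM in o libraries, which overlapped. Hist2h4 did not pass the threshold in aorta, at 1 to 2.82 CPM in n and 0.825 to 1.87 CPM in o (log2 fold change 0.09 ± 0.46, adjusted p = 0.866). In liver, where it was below the filter, it had 6 reads in n and 39 in o libraries, an o to n ratio of 5.5 (95% exact interval 2.31 to 15.9), and its 0 to 0.634 CPM in n overlapped with 0.576 to 2.23 CPM in o. Hist1h4i, below the filter, had 25 reads in n and 0 in o libraries of aorta, at least 3.43-fold higher in n by the lower 95% exact limit (4.55-fold against a floor of 3 reads over the o libraries). Hist4h4 had 3 reads in n and 18 in o libraries of aorta, an o to n ratio of 11 (95% exact interval 3.21 to 58.2), against 23 reads in n and 14 in o libraries of liver.

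Both directions were also seen among H2B genes. Hist1h2bc had 3.74 and 3.99 CPM (E2) and 3.67 and 3.92 CPM (vehicle) in n libraries of aorta, against 1.66 and 0.577 CPM (E2) and 1.36 and 1.07 CPM (vehicle) in o. In liver it had 39.6 and 23 CPM (E2) and 21.4 and 21.4 CPM (vehicle) in n, against 2.59 and 1.72 CPM (E2) and 0.801 and 2.03 CPM (vehicle) in o. All n libraries lay above all o libraries, with a log2 fold change of 1.67 ± 0.37 in aorta (adjusted p = 0.00188) and 3.76 ± 0.38 in liver (adjusted p = 9.34e-08). Hist1h2be lay at the other end, at 0.116 to 0.158 CPM in n and 1.21 to 3.78 CPM in o libraries of aorta, and at 0 to 0.338 CPM in n and 2.94 to 6.68 CPM in o libraries of liver. The groups were separate, at −4.15 ± 0.51 in aorta (adjusted p = 2.68e-05) and −5.39 ± 0.84 in liver (adjusted p = 1.52e-05). Hist1h2be passed the filter through its o libraries, so a difference in this direction was set in advance. The liver value rested on 2 reads in n and 131 in o libraries, an o to n ratio of 55.4 (95% exact interval 15 to 462). Hist2h2be and Hist2h2bb, tested in aorta, did not pass the threshold (0.83 ± 0.73, adjusted p = 0.326, and −0.99 ± 0.90, adjusted p = 0.342), and every window of the Hist2h2bb transcript also occurs in another gene. Hist3h2ba had 30 reads in n and 0 in o libraries of aorta, at least 4.17-fold higher in n by the lower 95% exact limit (5.46-fold against a floor of 3 reads over the o libraries).

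Among H2A genes, Hist3h2a was the most abundant, and it shares exon sequence with Trim17 on the same strand. It had 2.11 to 5.49 CPM in n and 1.48 to 2.12 CPM in o libraries of aorta, and 4.4 to 6.95 CPM in n and 2.4 to 4.27 CPM in o libraries of liver. The liver groups did not overlap and the aorta groups just did, but neither difference passed the threshold (0.69 ± 0.39, adjusted p = 0.132 in aorta and 0.80 ± 0.46, adjusted p = 0.122 in liver). Hist2h2ac had 0.079 to 0.549 CPM in n and 0.385 to 0.908 CPM in o libraries of aorta, which overlapped, and was called lower in n (−1.76 ± 0.61, adjusted p = 0.0224), a call lost without vehicle aorta n1 or E2 aorta o1, n1 or n2 (−1.80 to −1.48). Hist1h2ak had 1 read in n and 35 in o libraries of aorta, and 0 in n and 28 in o libraries of liver, where it was at least 6-fold lower in n by the lower 95% exact limit (7.89-fold against a floor of 3 reads over the n libraries). No H3 gene passed the filter. Together they had 34 reads in n and 37 in o libraries of aorta, and 13 in n and 83 in o libraries of liver. Scaled for depth, these were means of 0.49 CPM in n and 1.2 CPM in o libraries of aorta, with overlapping ranges. In liver the means were 0.66 CPM in n and 2.74 CPM in o libraries.

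**Figure D2:**
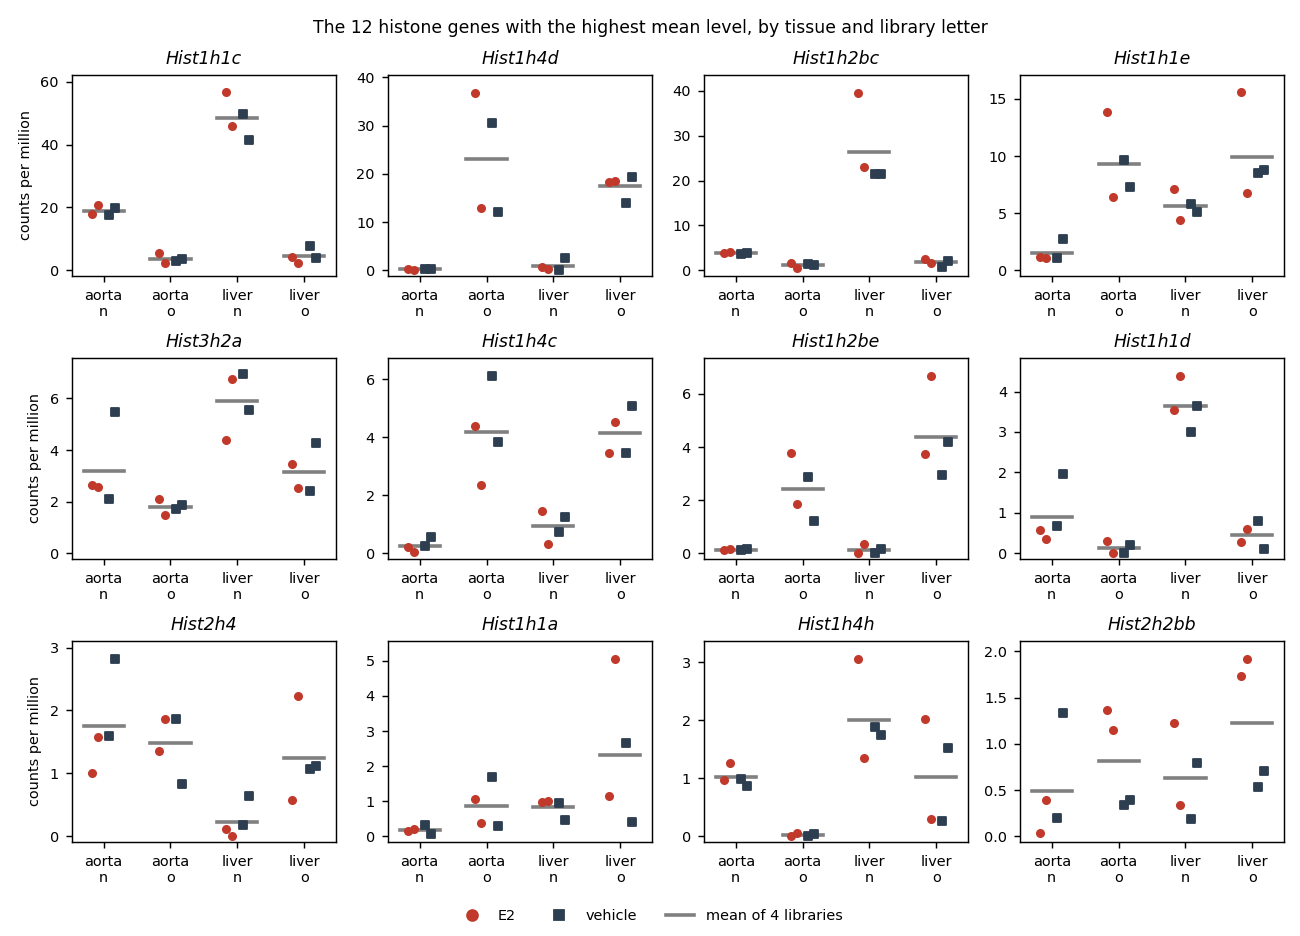
CPM of the 12 histone genes with the highest mean level, by tissue and library letter, with E2 libraries as red circles, vehicle libraries as dark blue squares and the mean of 4 libraries as a grey bar. Hist1h1c and Hist1h2bc are highest in n libraries of liver, Hist1h4d, Hist1h4c and Hist1h2be are at 2.53 CPM or less in every n library, and E2 and vehicle points mix within a column.

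**Figure D3:**
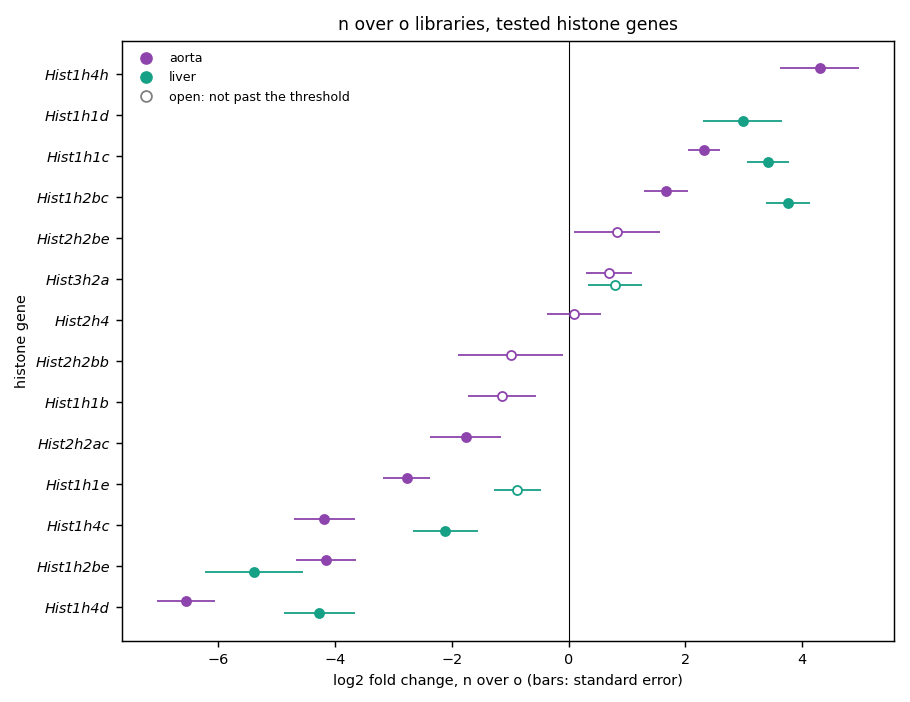
Log2 fold change of n over o libraries in aorta (purple) and liver (green) for each histone gene that passed the filter, with standard errors as bars and open points for values that did not pass the threshold. Values run from −6.55 for Hist1h4d in aorta to 4.30 for Hist1h4h in aorta.

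The n over o difference itself was compared between the tissues over all 16 libraries. Among the 13 histone genes tested, 1 was called higher and 2 lower in aorta than in liver, where 19.5% of all genes were called higher and 9.45% lower (28.9% in either direction, at an adjusted p under 0.05 alone). Hist1h4h differed by 3.34 ± 1.10 on the log2 scale (adjusted p = 0.0291), Hist1h2bc by −2.06 ± 0.53 (adjusted p = 0.00777) and Hist1h1e by −1.89 ± 0.57 (adjusted p = 0.0188). Thus the excess of Hist1h2bc in n libraries was smaller in aorta than in liver, and the deficit of Hist1h1e was larger. The median over all genes was 0.41, and over the 13 histone genes −0.55. The counts of calls lie near the background, so they and the medians are not read as particular to histone genes. Hist1h4d (−2.28 ± 0.86, adjusted p = 0.0523), Hist1h4c (−2.05 ± 0.78, adjusted p = 0.055), Hist2h4 (2.54 ± 0.98, adjusted p = 0.0573) and Hist1h1c (−1.08 ± 0.46, adjusted p = 0.0838) came close without passing. The call of Hist1h4h was lost without any 1 of 7 libraries (vehicle aorta o1, o2 or n1, E2 aorta o1 or n2, vehicle liver o2, E2 liver o1), at log2 differences of 2.74 to 3.60, and it rests on 2 reads in the o libraries of aorta. The call of Hist1h1e was lost without E2 aorta o1, at −1.50.

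The 3′ ends in the annotation were set beside the n over o ratio, as a description with no test. A poly-A signal (AATAAA or ATTAAA in the last 40 bases of the transcript) was present in 17 of the 68 genes. Of the 34 genes with at least 20 reads, 11 had the higher pooled CPM in n libraries, 6 of them with the signal. The other 23 had the higher pooled CPM in o libraries, 5 of them with the signal. Of these 5, Hist2h4 (−0.07) and Hist1h4a (−0.06) lay near 0 on the log2 scale. Reads were pooled over both tissues, so this ratio mixes tissue with letter. The n to o ratio was 1.18 in aorta and 0.182 in liver for Hist2h4, and 0.091 and 1.94 for Hist4h4. Hist1h1c, whose annotated transcript runs 840 bases past the stem-loop to such a signal, was high in n, as were Hist1h4i (330 bases), Hist3h2ba (169 bases) and Hist1h4h (46 bases). Hist1h2be and Hist1h4j, by contrast, also have a signal, with 1861 and 385 bases after the motif, and were low in n. Hist1h1d, with 4884 bases after the motif and no signal in its last 40 bases, was high in n. Hist1h4d (770 bases) and Hist1h4c (454 bases) have an annotated extension without a signal and were low in n.

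**Figure D4:**
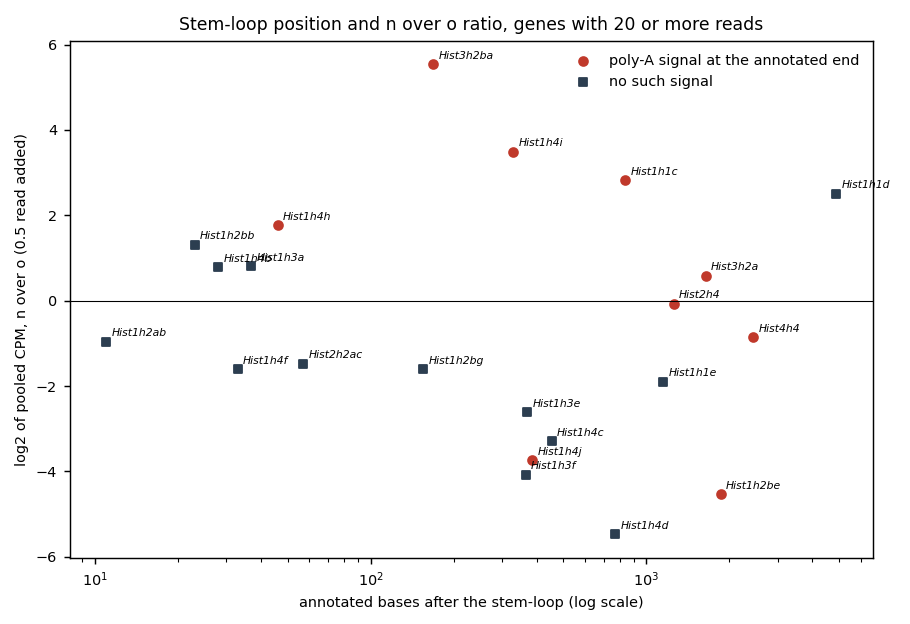
Log2 of the n over o ratio of pooled CPM, with 0.5 read added to each count, against the number of annotated bases after the stem-loop on a log axis, for genes with a motif and at least 20 reads. Reads were pooled over both tissues. Genes with a poly-A signal at the annotated end are red circles and the others dark blue squares, and both kinds lie on either side of 0.

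Some of these genes have human counterparts known to give polyadenylated transcripts in non-dividing cells. That list held 10 symbols, of which 9 were in the table. Its summed level was 24.3 to 29.6 CPM in n libraries of aorta, against 6.8 to 13.6 CPM in o libraries, and 69.5 to 103 CPM in n libraries of liver, against 13.6 to 16.8 CPM in o. The groups did not overlap in either tissue, but Hist1h1c and Hist1h2bc carried the difference. The other 7 genes summed to 4.2 ± 1.31 CPM in n and 5.18 ± 1.42 CPM in o libraries of aorta, and to 7.75 ± 1.44 CPM in n and 9.01 ± 0.529 CPM in o libraries of liver (SD, n = 4 each). Their sums were thus lower in n on average, with overlapping ranges in both tissues. Of the 5 tested in aorta, Hist1h1c and Hist1h2bc were called higher and Hist1h2be lower in n, with a median log2 fold change of 0.83 against 0.13 over all genes. Of the 4 tested in liver, Hist1h1c and Hist1h2bc were called higher and Hist1h2be lower, with a median of 2.11 against −0.08 over all genes. Hist1h2ac, Hist1h2bd, Hist1h2bk, Hist2h2aa1 and Hist4h4 were not tested within either tissue: Hist1h2ac had 14 reads, Hist1h2bk 11, Hist4h4 58 and Hist2h2aa1 0, and Hist1h2bd was not analysed here.

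In vehicle-treated tissue, aorta had lower levels than liver for a pair of histone genes. Aorta was compared with liver over the 8 vehicle libraries, and 6 histone genes passed the filter, of which 0 were called higher and 2 lower. Over all genes, 24.1% were called higher and 23.4% lower (47.5% in either direction). Hist1h2bc had 3.67 and 3.92 CPM (n) and 1.36 and 1.07 CPM (o) in aorta, against 21.4 and 21.4 CPM (n) and 0.801 and 2.03 CPM (o) in liver. The tissues were separate in n libraries and overlapped in o libraries, and the log2 fold change was −1.61 ± 0.56 (adjusted p = 0.0306). Hist1h1c had 17.6 and 19.7 CPM (n) and 2.89 and 3.64 CPM (o) in aorta, against 49.7 and 41.5 CPM (n) and 7.74 and 3.76 CPM (o) in liver. Aorta lay below liver within each letter (−1.04 ± 0.35, adjusted p = 0.027). Hist1h1e (−0.78 ± 0.50, adjusted p = 0.208), Hist3h2a (−0.82 ± 0.48, adjusted p = 0.175), Hist1h4d (−0.67 ± 0.74, adjusted p = 0.47) and Hist1h4c (−0.50 ± 0.58, adjusted p = 0.492) did not pass.

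The calls between tissues were seen in the n libraries and not in the o libraries. In n libraries alone, the log2 fold change was −2.64 ± 0.40 for Hist1h2bc (adjusted p = 0.0018) and −1.44 ± 0.32 for Hist1h1c (adjusted p = 0.00927), and in o libraries alone −0.26 ± 1.03 for Hist1h2bc (adjusted p = 0.856) and −0.69 ± 0.70 for Hist1h1c (adjusted p = 0.44). The test of this difference between letters, over all 16 libraries, is the one given above, and there Hist1h2bc passed (−2.06) and Hist1h1c did not (−1.08). That test includes the E2 libraries, and in vehicle libraries alone no histone gene was called in it. Both calls were lost without vehicle liver n1 or n2 and without vehicle aorta n1 or n2, at −1.34 to −1.30 for Hist1h2bc, and Hist1h1c also without vehicle liver o1 or vehicle aorta o1, at −1.01 to −0.82 over these 6. Without normalization factors they were −1.03 for Hist1h2bc (adjusted p = 0.125) and −0.47 for Hist1h1c (adjusted p = 0.269), where the median over all genes moved to 0.62, against 0.05 with them.

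E2 made no histone gene pass the threshold in either tissue. In aorta, 0 of 13 genes tested were called higher or lower by edgeR, as by DESeq2 and limma voom, and 0 had an unadjusted p under 0.05. Over all 13698 genes, 0% were called, with 495 at an unadjusted p under 0.05. In liver, 0 of 8 were called by each of these tools and 0 had an unadjusted p under 0.05, against 0% of all 11726 genes called and 502 at an unadjusted p under 0.05. The median log2 fold change was −0.13 over the 13 histone genes and −0.01 over all genes in aorta, and 0.06 over the 8 histone genes and −0.01 over all genes in liver. The progesterone receptor gene Pgr, a well known estrogen target, ran from 7.51 to 13 CPM in E2 aorta and 1.96 to 3.59 CPM in vehicle aorta without overlap, and it too missed the threshold (log2 fold change 1.97 ± 0.23, adjusted p = 0.0898).

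The smallest p-values in aorta were those of Hist1h4c, Hist2h2ac, Hist1h2be and Hist3h2a. Hist1h4c had 4.39 and 2.37 CPM (o) and 0.231 and 0.0395 CPM (n) in E2 aorta, against 6.13 and 3.83 CPM (o) and 0.239 and 0.549 CPM (n) in vehicle aorta. The E2 CPM was below the vehicle CPM of the same suffix for 4 of 4 suffixes, but n1 was a tie in reads, at 6 and 6. The n2 values rest on 1 read with E2 and 7 with vehicle. The fitted log2 fold change was −0.87 ± 0.48 (unadjusted p = 0.101, adjusted p = 1). Hist2h2ac had 0.908 and 0.385 CPM (o) and 0.154 and 0.079 CPM (n) in E2 aorta, against 0.681 and 0.728 CPM (o) and 0.159 and 0.549 CPM (n) in vehicle aorta. The groups overlapped (−0.82 ± 0.60, unadjusted p = 0.207, adjusted p = 1). Hist1h2be (0.35 ± 0.40) and Hist3h2a (−0.33 ± 0.38) were nearer to 0, both at an adjusted p of 1. Hist3h2a was at 5.49 CPM in vehicle aorta n2, against 2.11 CPM or less in the other vehicle aorta libraries, and without that library its log2 fold change was 0.10. This library also had the highest lymphocyte marker sum, whose part in the result was not tested.

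In liver, Hist1h2bc had 39.6 and 23 CPM (n) and 2.59 and 1.72 CPM (o) with E2, against 21.4 and 21.4 CPM (n) and 0.801 and 2.03 CPM (o) with vehicle. Its 39.6 CPM in n1 stood apart, and E2 was above vehicle for some suffixes and below it for another (0.50 ± 0.35, unadjusted p = 0.17, adjusted p = 0.939). Hist1h2be (0.50 ± 0.69), Hist1h1d (0.37 ± 0.61) and Hist1h1c (−0.20 ± 0.27) all had an adjusted p of 0.955. Between the tissues, 0 of 13 histone genes were called for a difference in E2 effect, and 0 had an unadjusted p under 0.05, against 0% of 14190 genes called and 761 at an unadjusted p under 0.05. The smallest p-values were those of Hist1h1d (−1.62 ± 1.03 in aorta minus liver, adjusted p = 0.875), Hist1h2bc (−0.63 ± 0.47, adjusted p = 0.879), Hist4h4 (−1.52 ± 1.29, adjusted p = 0.885) and Hist1h4c (−0.83 ± 0.73, adjusted p = 0.885). Standard errors of the E2 effect ran from 0.26 to 0.87 on the log2 scale in aorta and from 0.27 to 0.69 in liver, which limits the size of change that could be seen.

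**Figure D5:**
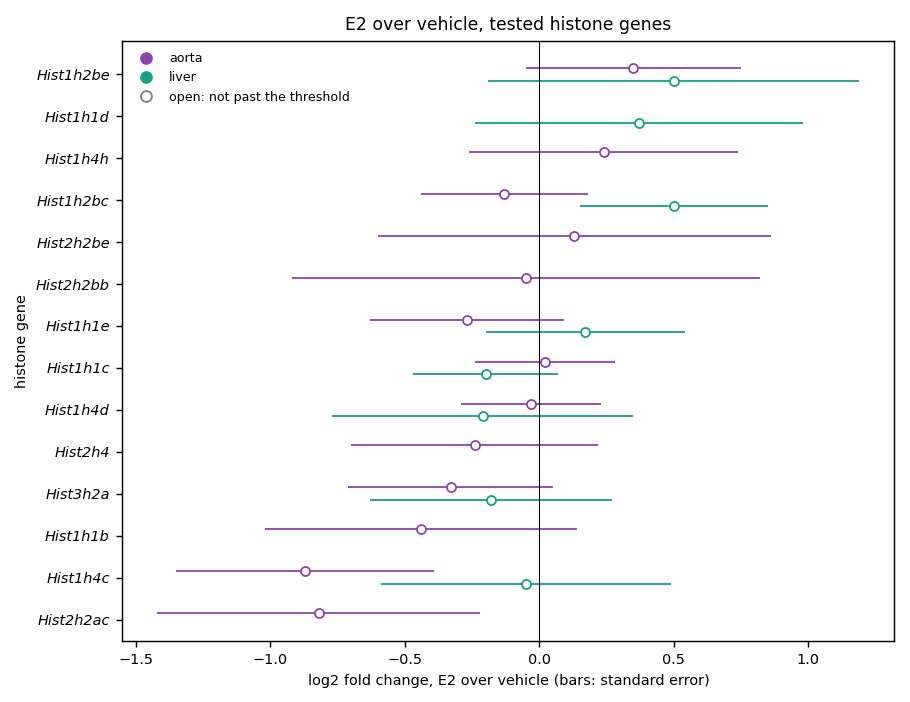
Log2 fold change of E2 over vehicle in aorta (purple) and liver (green) for each histone gene that passed the filter, with standard errors as bars. All points are open, as none passed the threshold, and values run from −0.87 for Hist1h4c in aorta to 0.50 for Hist1h2bc and Hist1h2be in liver.

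Genes that work with histone messages were compared in the same fits. Replacement histone variants, which are made outside S phase and whose messages are mostly polyadenylated, were higher in n libraries: 9 of 11 tested were called higher in aorta and 8 of 9 in liver, with 0 called lower, against 33.0% and 33.7% of all genes called higher. The median log2 fold change was 2.44 in aorta, against 0.13 over all genes, and 2.61 in liver, against −0.08 over all genes. The largest were H2afx (6.09 ± 0.72), H1fx (5.92 ± 0.99), H3f3a (3.67 ± 0.42) and H2afv (3.32 ± 0.44) in aorta, and H2afx (4.60 ± 0.74), H2afv (3.74 ± 0.31), H2afj (2.89 ± 0.37) and Cenpa (2.77 ± 0.55) in liver. H2afx averaged 0.144 CPM in o and 7.14 CPM in n libraries of aorta, and 0.148 and 4.29 CPM in liver. H1fx averaged 0.0426 and 1.88 CPM in aorta. H3f3a averaged 0.457 and 6.63 CPM in aorta, and Cenpa 1.06 and 7.6 CPM in liver. Such genes passed the filter through the n libraries and had to differ. The counts and medians above include them, so neither is read as support. H3f3b, well read in both letters, averaged 36.4 CPM in o and 215 CPM in n libraries of aorta, and 24.5 and 163 CPM in liver. H2afz averaged lower in n, at 1.73 CPM in o and 1.18 CPM in n libraries of aorta, and 3.34 and 1.62 CPM in liver. In vehicle tissue, H1f0 (−2.07 ± 0.30) and H2afj (−1.43 ± 0.32), of 10 variants tested, were called lower in aorta than in liver. The n over o difference of H1f0 was lower in aorta than in liver (−1.03 ± 0.29, adjusted p = 0.0129).

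Slbp itself was lower in n libraries, at 18.1 to 20.5 CPM in n and 24.9 to 49.7 CPM in o libraries of aorta (−1.03 ± 0.23, adjusted p = 0.00168), and at 10.8 to 15.4 CPM in n and 22.1 to 46.4 CPM in o libraries of liver (−1.46 ± 0.31, adjusted p = 0.000333). Neither pair of groups overlapped. Scaling matters here: without normalization factors the median over all genes moved to 0.89 in aorta and 0.19 in liver, with Slbp at −0.29 and −1.16, while the calls of the replacement variants stayed at 9 and 8 higher and 0 lower. Of 18 genes tested in aorta for histone transcription, 3′ end processing and decay, 3 were called higher and 8 lower in n, and of 16 in liver 3 higher and 8 lower. Over all genes, 33.0% were called higher and 28.1% lower in aorta, and 33.7% higher and 35.7% lower in liver. Casp8ap2, needed for histone gene transcription, was lower in both (−3.01 ± 0.25 in aorta and −4.39 ± 0.31 in liver), while Lsm11, part of the U7 particle, was higher in aorta (3.61 ± 0.44). Lsm11 averaged 0.338 CPM in o and 5.43 CPM in n libraries of aorta, so it too passed the filter through the n libraries. Between tissues, Npat, the coactivator of histone genes, was higher in vehicle aorta than in vehicle liver (1.82 ± 0.40, adjusted p = 0.00234), and 4 of 17 genes of that list were called higher and 1 lower, against 24.1% and 23.4% of all genes.

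Histone chaperones had 3 of 16 genes called higher and 5 lower in n libraries of aorta, and 1 of 15 higher and 6 lower in liver, led by Atrx (−4.65 ± 0.28 in aorta and −6.79 ± 0.38 in liver). With 33.0% of all genes called higher and 28.1% lower in aorta, and 33.7% and 35.7% in liver, the counts of this list and of those that follow are not read as particular to them. Genes of S phase and DNA replication had 7 of 27 called higher and 7 lower in aorta, and 4 of 25 higher and 9 lower in liver. E2f1 (3.60 ± 0.59) and Pola1 (−3.41 ± 0.36) lay at the ends in aorta, and Pola1 (−6.50 ± 0.37) and Cdt1 (3.45 ± 0.63) in liver. E2f1 averaged 0.408 CPM in o and 6.46 CPM in n libraries of aorta. In liver, Cdt1 averaged 0.502 CPM in o and 5.34 CPM in n, and Pola1 157 CPM in o and 1.75 CPM in n. In these tissues they passed the filter mainly through a single letter, so the directions there were set in advance. Other transcripts known without a canonical poly-A tail, mainly small nucleolar RNAs, had 8 of 25 called higher and 8 lower in n libraries of aorta, and 4 of 9 higher and 4 lower in liver. Rn45s was lower in n libraries of aorta (−1.08 ± 0.24) and of liver (−3.10 ± 0.34). With E2, 0 genes of these lists were called in aorta or liver by edgeR, as over all genes.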

How the data were processed

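RNA of 16 libraries was measured by sequencing. The authors deposited 1 table of estimated counts per gene, made with Bowtie 0.12.5, HTSeq 0.4.5p7 and edgeR 3.4.2 on mm9, per the submitters' processing notes. The annotation, the strand setting and the handling of reads with several matches are not stated in any source used. All 24011 gene rows were whole numbers, so rounding changed nothing. The 8 lines that name no gene were left out. They include reads on no gene (48% to 75.2% of the reads) and ambiguous reads (0.0452% to 0.523%). Column names carry the group but not the sample, so the columns are unnumbered libraries of a group.

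The members and lists were chosen with earlier results of these data known. Genes with low counts were removed with filterByExpr (minimum count 10, minimum total 15, by tissue and treatment), and libraries were scaled by TMM. Tests were edgeR's quasi-likelihood test (edgeR 4.0.16, R 4.3.3) with Benjamini-Hochberg adjustment over all genes tested, two-sided, at an adjusted p of 0.05, plus an absolute log2 fold change over 1 between tissues and between n and o. The E2 and tissue fits held a batch term with the levels o1, o2 and n, where n1 and n2 share a level. This term was chosen here from the column suffix, and no label names these as batches. The n over o fits held treatment. SE is the absolute log2 fold change over the square root of F. CPM values use TMM library sizes, and intervals and floors (3 reads) cover counting error only. Alternatives included DESeq2 1.42.0 and limma voom 3.58.1, and the fits were tested on simulated data.

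Named genes are the 12 with the highest mean CPM, the 6 highest and 6 lowest of each comparison, the 4 smallest p-values of each E2 comparison, the testis-type genes and those of the polyadenylated list. From other lists, the 4 largest changes were named, with Slbp and Rn45s. Genes described only by reads or by their annotated 3′ end (Hist1h2ak, Hist1h4i, Hist1h4j, Hist3h2ba) were chosen after their values were seen.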

Additional observations from a re-analysis of the deposited data

Results flagged for a closer look

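Within groups of 4 libraries, 104 checks for a library far from the others were made on the 12 histone genes with the highest mean level and on the sum over histone genes, and 10 were found. The groups were taken by tissue and letter and by tissue and treatment. The latter mix n and o libraries, and the checks overlap, so the number found is not set against a chance rate. Vehicle aorta n2 accounted for several. Hist3h2a was at 5.49 CPM there, against 2.66 CPM in the nearest n library of aorta and 2.11 CPM in the nearest vehicle library of aorta. In the same library, Hist1h1e was at 2.74 CPM, against 1.16 CPM in the nearest n library of aorta, and Hist2h2bb at 1.33 CPM, against 0.388 CPM in the nearest vehicle library. All histone genes summed to 47.8 CPM there, against 34.5 CPM in the nearest n library of aorta. Lymphocyte markers summed to 136 CPM in this library, and their part in these values was not tested.

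Among the E2 libraries of aorta, the sum over histone genes was 80.2 CPM in o1, against 34.6 CPM in the nearest library. Hist1h2bc was at 39.6 CPM in E2 liver n1, against 23 CPM in the nearest n library of liver. Hist1h1a was at 5.06 CPM in E2 liver o2, against 1.15 CPM in the nearest E2 library of liver. It was at 0.475 CPM in vehicle liver n2, against 0.939 CPM in the nearest n library of liver, and at 1.7 CPM in vehicle aorta o1, against 0.319 CPM in the nearest vehicle library of aorta.

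For 3 genes the n over o difference itself differed between aorta and liver in the test over all 16 libraries, by 3.34 for Hist1h4h, −2.06 for Hist1h2bc and −1.89 for Hist1h1e on the log2 scale.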

How the results depend on the processing

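Over 52 values of single histone genes and 1061 alternative settings, direction and call were kept in 959, the call was lost in 39 and gained in 29, and the sign turned in 34, while 42 of the values never turned. Each gene called between n and o within a tissue kept its direction under every setting in which it was tested. Several of them passed the filter mainly through a single letter, so for these the kept direction is not read as support. Same-suffix libraries of E2 and vehicle deviated together from their group means (r of 0.84 to 0.93 over genes), but each group holds both letters. With the letter mean removed, r was 0.50 (o) and 0.43 (n) in aorta and 0.25 (o) and −0.05 (n) in liver. These values do not settle, for aorta, whether the suffixes pair the samples, and no full pairing was used in the main fits. The batch term of the E2 fits does match o1 with o1 and o2 with o2. With the suffixes as a replicate block, 0 histone genes were called in the 3 E2 comparisons and 2 between the tissues, so the block changed no call there. No paired analysis was possible for n over o because the suffix holds the letter.

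Histone genes called lower in aorta than in liver numbered 0 without normalization factors, without the batch term or in o libraries alone, 1 without the filter or without Rn45s, and 0 to 2 when a library was left out. For n over o in aorta, 6 were called higher and 9 lower without the filter, 3 lower at a minimum count of 30, 1 lower in vehicle libraries alone, and 1 higher and 1 lower in E2 libraries alone. In liver, 7 were called lower without the filter, 1 lower at a minimum count of 30, 1 higher and 0 lower in vehicle libraries alone, and 0 lower in E2 libraries alone. For the difference between tissues, 2 were called higher and 1 lower without factors, 5 lower with DESeq2's size factors or DESeq2, 4 lower with upper-quartile factors, 2 higher with limma voom, and 0 higher without the filter. At a minimum count of 30, 0 were higher and 4 lower. In vehicle or E2 libraries alone, 0 were called either way, and with a library left out 0 to 2 were higher and 1 to 4 lower. Sums moved to 68.4 CPM without Rn45s and 47.8 CPM without factors in o libraries of liver, and to 59.2 and 56.9 CPM in n libraries of aorta. The cause was not tested.

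These log2 values turned sign. For E2 in liver, Hist1h1c was at 0.01 with limma voom, 0.08 without the batch term and 0.16 in n libraries alone. For the difference in E2 effect, Hist4h4 was at 0.26 in n libraries alone. Between tissues, Hist1h4c was at 0.03 without factors and 0.15 in o libraries alone, and Hist1h4d at 0.25 without the batch term and 0.18 in o libraries alone. For n over o in aorta, Hist2h4 was at −0.24 in E2 libraries alone. For the n over o difference without factors, Hist1h1d was at 0.11, Hist2h2bb at 0.43 and Hist3h2a at 0.37, and Hist3h2a was at 0.15 in vehicle libraries alone. With a library left out, ranges crossed 0 for Hist3h2a with E2 in aorta (−0.53 to 0.10), Hist1h4d between tissues (−1.32 to 0.54), Hist2h4 for n over o in aorta (−0.23 to 0.38), and, for the n over o difference, Hist1h1a (−0.96 to 0.07), Hist1h1d (−0.94 to 0.44), Hist2h2bb (−1.14 to 0.64) and Hist3h2a (−0.46 to 0.11).

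Depth limits most of these genes: 34 had fewer than 20 reads, and 1 read was worth 0.0385 to 0.338 CPM.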
